A study of Mus musculus with 6 samples.

Results

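The 10 genes described here encode the machinery of MHC class II antigen presentation. They are the chains H2-Aa, H2-Ab1 and H2-Eb1, the peptide editors H2-DMa and H2-DMb1, the editor inhibitors H2-Oa and H2-Ob, the invariant chain Cd74, its protease Ctss and the transactivator Ciita. Their probe sets were chosen by an exact match of the gene symbol in the platform annotation, whatever their values. The genes themselves were chosen with earlier results of these data known. In all, 17 probe sets matched, and they covered 9 of the 10 genes, out of 18194 genes that the annotation gives with a probe set of their own. H2-DMb1 had none, because both of its probe sets also list H2-DMb2. Of the 17 probe sets, 15 were bright enough to be tested.

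Class II molecules are pairs of an alpha and a beta chain that carry peptides from endocytosed protein to the cell surface, where CD4 T cells read them. The invariant chain fills the groove while the pair travels to the endosome. Cathepsin S then trims the invariant chain, and the DM heterodimer exchanges the last fragment for peptide, a step that the DO heterodimer restrains. Expression is switched on by Ciita, which binds no DNA itself and acts through factors on the X and Y boxes of the promoters. In bone marrow, B lineage cells, dendritic cells and monocyte derivatives are known for class II expression.

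The arrays held RNA of bone marrow cells sorted as lineage negative, cKit positive and Sca1 negative, which the labels call adult myeloerythroid progenitors. The ICN2-positive group was 3 arrays from male mice of genotype Rosa-lsl-ICN2 Mx1-cre+, in which the recombinase opens a Rosa26 transgene for the intracellular, constantly active part of Notch2. The ICN2-negative group was 3 arrays from female Mx1-cre+ littermates without the transgene. The labels give 6 weeks of age for all mice, and both groups carried Mx1-cre. Both also received polyIC, which induces interferon, as 3 injections of 20 mcg per g, and marrow was collected 1 week after the final injection. Mx1-cre answers to interferon in many cell types, so recombination is not limited to the sorted cells. Since every ICN2-positive sample was male and every ICN2-negative sample female, effects of genotype and of sex cannot be told apart here. Nothing in the labels says that the replicates came from different animals, so a p-value measures only how far these samples spread, and that spread may be technical.

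Values are log2 intensities, differences are ICN2 positive minus ICN2 negative, and a call is an adjusted p below 0.05 in limma over all probe sets tested. Median log2 intensity was 6.05 to 6.09 per array. One array differed from the rest of its group: ICN2-positive replicate 1 had a correlation of 0.966 and 0.974 to the other ICN2-positive arrays against 0.991 between those. Of 12 progenitor markers none was called in limma (2.65% of all probe sets were). None had an unadjusted p below 0.05 (24.3% of all probe sets did), but 8 had lower ICN2-positive means. Groups were apart in either direction for 8, against 37.5% of all genes read by their brightest probe set. The median difference was -1.18, or -0.43 without ICN2-positive replicate 1. Kit, the receptor used in the sort, lay at 10.15 to 10.86 on ICN2-positive arrays and 10.38 to 10.50 on ICN2-negative arrays, and the erythroid factor Gata1 lay at 12.14 to 12.27 and 12.09 to 12.15. Mpo, a granule enzyme of granulocyte progenitors, lay at 11.71, 13.69 and 13.63 on ICN2-positive arrays and at 14.00 to 14.08 on ICN2-negative arrays, and replicate 1 is the low one. Cd34, Cebpa, Ctsg, Prtn3, Elane and Fcgr3, genes of stem or granulocyte and macrophage progenitors, were 2.54-fold to 4.15-fold lower on average with groups apart, and replicate 1 was again the lowest array in each. Without it Ctsg and Elane were called, at -0.54 (adjusted p = 0.0485) and -0.57 (adjusted p = 0.0485). In that fit 3.14% of all probe sets were called, 1.55% lower. The part of these shifts in the class II values was not tested. Of 6 measured genes listed as markers gated out of the sort, 4 were tested and none was called in limma. Ptprc, 1 of the 4, lay at 10.54 to 11.80 on ICN2-positive and 11.53 to 11.87 on ICN2-negative arrays. A gene this bright in the sorted cells does not mark cells left out of the sort. Cd3e and Cd4 had an unadjusted p below 0.05, against 24.3% of all probe sets. The T cell gene Cd3e lay at 7.17, 7.52 and 6.16 on ICN2-positive arrays, against 6.14, 5.40 and 5.27 on ICN2-negative arrays (adjusted p = 0.131). Cd4 lay at 5.11 to 5.24 and 5.45 to 5.73. It exceeded the 40th percentile of the array on no ICN2-positive array and on all 3 ICN2-negative arrays. Cd4 was thus tested only through its higher group, and its p is no evidence of a difference. Results are therefore also given without ICN2-positive replicate 1.

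Letters of the X and Y boxes are shown first, because Ciita is known to act on class II genes through factors on these boxes. Only promoter windows that hold such letters are printed. Each line gives the 150 bases before the annotated start on the gene's own strand, 5′ to 3′, from RefSeq on GRCm38.p6. Capitals mark CCAAT or its reverse complement (the Y box letters, extended to TGATTGG where that longer form is present) and ACNGATG (letters from the right side of the X box), searched on both strands. The windows are chr17:34287824-34287973 on the minus strand for H2-Aa and, on the plus strand, chr17:34305717-34305866 for H2-Eb1, chr17:34153041-34153190 for H2-DMb1, chr17:34092229-34092378 for H2-Oa and chr17:34238755-34238904 for H2-Ob.
H2-Aa: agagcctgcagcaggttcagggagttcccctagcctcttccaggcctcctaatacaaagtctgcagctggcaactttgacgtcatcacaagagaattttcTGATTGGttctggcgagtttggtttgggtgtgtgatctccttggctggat
H2-Eb1: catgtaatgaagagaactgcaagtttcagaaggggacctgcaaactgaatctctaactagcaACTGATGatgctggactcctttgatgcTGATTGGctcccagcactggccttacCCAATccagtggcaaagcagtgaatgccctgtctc
H2-DMb1: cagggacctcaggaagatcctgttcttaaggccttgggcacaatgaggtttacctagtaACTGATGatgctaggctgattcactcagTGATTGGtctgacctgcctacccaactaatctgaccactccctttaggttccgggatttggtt
H2-Oa: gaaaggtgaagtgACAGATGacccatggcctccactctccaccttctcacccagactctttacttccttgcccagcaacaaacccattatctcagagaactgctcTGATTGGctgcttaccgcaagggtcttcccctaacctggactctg
H2-Ob: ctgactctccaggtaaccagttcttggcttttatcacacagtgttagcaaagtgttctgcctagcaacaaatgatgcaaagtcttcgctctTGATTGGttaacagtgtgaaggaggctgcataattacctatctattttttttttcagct

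All 5 windows held TGATTGG, which ended at -44 in H2-Aa, -55 in H2-Eb1, -57 in H2-DMb1, -39 in H2-Oa and -53 in H2-Ob, counted back from the start. These 7 letters were chosen after the sequences were seen, and they occur in 5.71% of the 32851 RefSeq promoter windows of the same length, while CCAAT on either strand occurs in 24.5%. The letters ACNGATG began at -88 in H2-Eb1, -91 in H2-DMb1 and -137 in H2-Oa, and they occur in 4.92% of windows. They ended at -82 in H2-Eb1 and -85 in H2-DMb1, where TGATTGG began at -61 and -63. In H2-Oa they ended at -131 and TGATTGG began at -45, so the H2-Oa match lay much further from the Y box letters. No exact match lay within the H2-Aa or H2-Ob window, and neither set of letters lay in the windows of Ctss or of either H2-DMa start. The table gave a promoter for 7 of the 10 genes, and H2-Ab1, Cd74 and Ciita are named only. A match is a run of letters and not a measured site.

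None of the 15 tested probe sets passed the test in limma, where 2.65% of all 27424 probe sets did (1.67% higher and 0.988% lower). The adjusted p ran from 0.0976 to 0.719. At an unadjusted p below 0.05 there were 8 of 15, against 24.3% of all probe sets. In 8 of 15 the 3 ICN2-positive arrays all lay below the 3 ICN2-negative arrays, against 14.0% of all probe sets lower in this way and 33.7% apart in either direction, and 13 of 15 had a lower ICN2-positive mean. The median difference was -0.41 over the 15 and 0.033 over all probe sets tested. Read by the brightest probe set, 5 of 9 genes had groups apart, against 37.5% of all genes. Several of the 15 probe sets read the same gene, and the members were chosen with earlier results of these data known. These counts therefore describe the members and are no test of them as a set. The H2-Aa, H2-Eb1, Cd74 and Ctss means were between 2.83-fold and 5.55-fold lower in ICN2-positive cells, while H2-Ab1, H2-DMa, H2-Oa, H2-Ob and Ciita had means within 1.43-fold of each other between the genotypes.

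**Figure D1:**
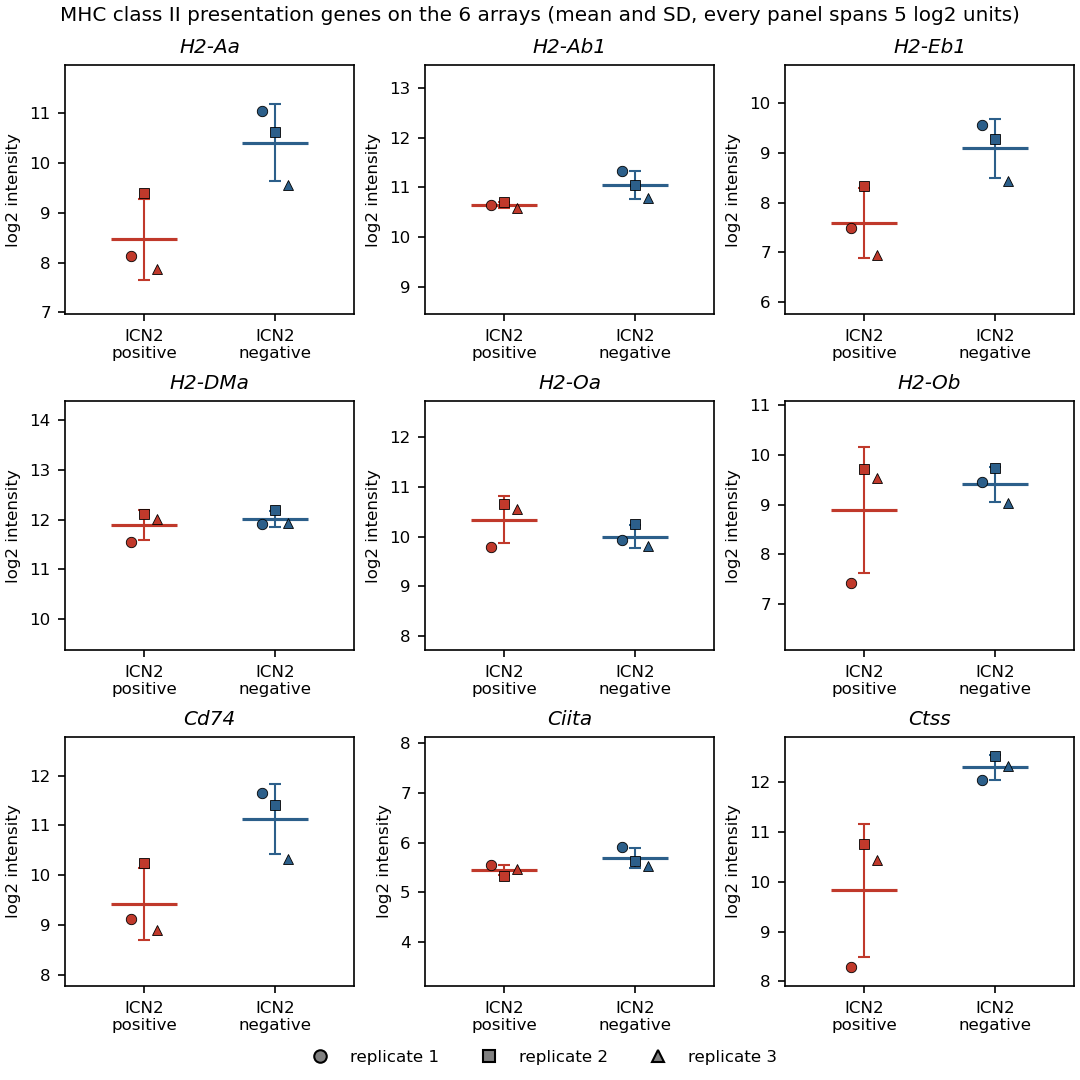
Log2 intensity of the brightest probe set of each of the 9 genes on the ICN2-positive arrays (red, left) and ICN2-negative arrays (blue, right), with replicate shown by symbol, the mean as a line and the SD as a bar, n = 3 each. The groups do not overlap for H2-Aa, H2-Ab1, H2-Eb1, Cd74 and Ctss, and they overlap for H2-DMa, H2-Oa, H2-Ob and Ciita.

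H2-Aa, the alpha chain of the A molecule, was read by 4 probe sets. The brightest, 1435290_x_at, lay at 8.13, 9.40 and 7.88 on ICN2-positive arrays, against 11.05, 10.63 and 9.56 on ICN2-negative arrays. The groups did not overlap, but ICN2-positive replicate 2 and ICN2-negative replicate 3 were close to each other. The means were 8.47 ± 0.81 in ICN2-positive and 10.41 ± 0.77 in ICN2-negative cells (SD, n = 3 each), a difference of -1.94 ± 0.54 (SE), or 3.84-fold lower, with an adjusted p of 0.113 in limma. The probe sets 1438858_x_at and 1452431_s_at differed by -1.50 (adjusted p = 0.0976) and -1.85 (adjusted p = 0.132), so all 3 bright probe sets of H2-Aa ran the same way, although on 1452431_s_at the groups overlapped at 7.90 in ICN2-positive replicate 2 and 7.85 in ICN2-negative replicate 3. The fourth, 1443783_x_at, lay below the 40th percentile of every array, at 2.87 to 2.94 on ICN2-positive and 2.95 to 3.15 on ICN2-negative arrays, and was not tested. Probe sets ending in _x_at or _s_at can also read related transcripts.

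H2-Ab1, the beta chain that pairs with H2-Aa, had a smaller mean difference. Its brightest probe set, 1450648_s_at, lay at 10.66, 10.70 and 10.58 on ICN2-positive arrays, against 11.33, 11.05 and 10.78 on ICN2-negative arrays. The ICN2-positive arrays were nearly level, and the ICN2-negative arrays spread above them. The difference was -0.41 ± 0.15, or 1.33-fold lower (adjusted p = 0.174, 95% interval -0.78 to -0.04), and the other H2-Ab1 probe sets differed by -0.30 and -0.28 with intervals that reach past 0. The log2 level of H2-Aa minus that of H2-Ab1 within each array was -2.53, -1.30 and -2.70 on ICN2-positive arrays and -0.28, -0.43 and -1.22 on ICN2-negative arrays. The groups did not overlap in this quantity (exact two-sided permutation p = 0.1, the smallest that 3 against 3 arrays allow). This was 1 of 3 such comparisons with H2-Ab1, and the Benjamini-Hochberg adjusted permutation p was 0.15 for H2-Aa, 0.15 for H2-Eb1 and 0.2 for Cd74, and no p under 0.1 was possible, so this test could not settle whether the chains differed unequally.

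H2-Eb1, the beta chain of the E molecule, followed H2-Aa. Its single probe set lay at 7.49, 8.33 and 6.95 on ICN2-positive arrays, against 9.57, 9.28 and 8.43 on ICN2-negative arrays. The highest ICN2-positive array was again replicate 2 and the lowest ICN2-negative array again replicate 3, and the groups were apart by a small gap. The difference was -1.50 ± 0.44, or 2.83-fold lower (adjusted p = 0.124).

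Cd74, the invariant chain that escorts new class II pairs, lay at 9.12, 10.25 and 8.90 on ICN2-positive arrays, against 11.65, 11.41 and 10.32 on ICN2-negative arrays. The groups did not overlap, although ICN2-positive replicate 2 at 10.25 lay just under ICN2-negative replicate 3. The difference was -1.70 ± 0.49, or 3.25-fold lower (adjusted p = 0.120). The order of the 6 arrays in Cd74 was the same as in H2-Aa.

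Ctss encodes cathepsin S, the endosomal protease that trims the invariant chain. It lay at 8.29, 10.77 and 10.43 on ICN2-positive arrays, against 12.04, 12.53 and 12.33 on ICN2-negative arrays. Every ICN2-positive array lay more than 1 log2 unit below every ICN2-negative array, and ICN2-positive replicate 1 lay far below the other arrays of its group. The difference was -2.47 ± 0.66, or 5.55-fold lower (adjusted p = 0.105). Without ICN2-positive replicate 1 the difference was smaller but its error was much smaller too, at -1.70 ± 0.19, or 3.26-fold lower, and Ctss passed the test (adjusted p = 0.0231 in limma, where 3.14% of probe sets passed, 1.55% lower). It was the single one of the 15 tested member probe sets called in that fit, and the median of the 15 was then -0.29. H2-Aa then differed by -1.77 (adjusted p = 0.191), H2-Eb1 by -1.45 (adjusted p = 0.202), Cd74 by -1.55 (adjusted p = 0.203) and H2-Ab1 by -0.41 (adjusted p = 0.25), so their sizes moved little without replicate 1.

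**Figure D2:**
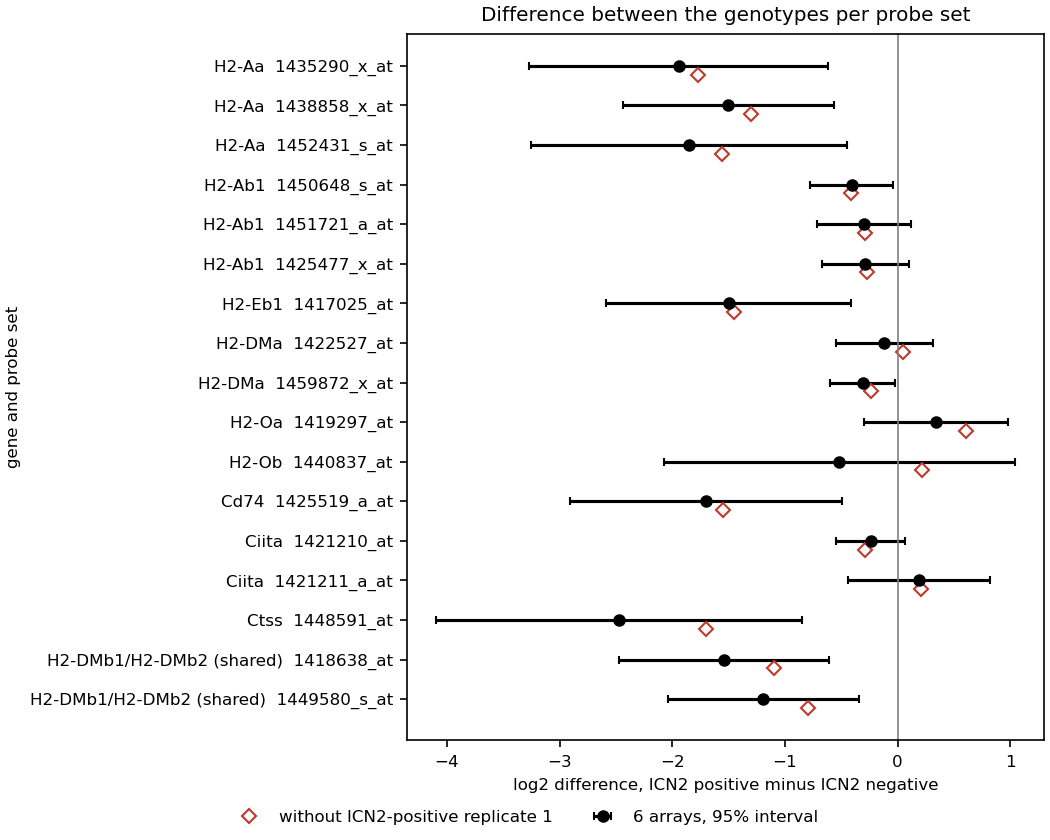
Log2 difference (ICN2 positive minus ICN2 negative) of every tested member probe set and of the 2 probe sets shared by H2-DMb1 and H2-DMb2, with 95% intervals of the limma fit over 6 arrays (filled) and the difference without ICN2-positive replicate 1 (open diamonds). H2-Aa, H2-Eb1, Cd74 and Ctss lie between -2.47 and -1.50, H2-Ab1 between -0.41 and -0.28, and H2-Ob and the brighter H2-DMa probe set cross 0 without replicate 1.

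The peptide editor H2-DM is a pair of H2-DMa and a DMb chain. H2-DMa lay at 11.56, 12.12 and 12.01 on ICN2-positive arrays, against 11.91, 12.20 and 11.93 on ICN2-negative arrays. The groups overlapped, and the difference of -0.12 had a 95% interval of -0.55 to 0.31, with a value of 0.051 without ICN2-positive replicate 1. The dimmer H2-DMa probe set, 1459872_x_at, differed by -0.31 ± 0.12 (95% interval -0.60 to -0.02, adjusted p = 0.183), with groups that did not overlap. The DMb chain had larger mean differences, a contrast with H2-DMa that was not tested, on probe sets that cannot separate H2-DMb1 from H2-DMb2. The first of them, 1418638_at, lay at 6.80, 8.16 and 8.10 on ICN2-positive arrays, against 9.23, 9.33 and 9.12 on ICN2-negative arrays, a difference of -1.54 ± 0.38, or 2.91-fold lower (adjusted p = 0.0926). The second, 1449580_s_at, differed by -1.19 (adjusted p = 0.121), and both had groups that did not overlap. Without ICN2-positive replicate 1 these differences were smaller, at -1.09 ± 0.09 and -0.79 ± 0.11, and both passed the test in limma (adjusted p = 0.0152 and 0.0384). Which of H2-DMb1 and H2-DMb2 they read cannot be told.

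H2-Oa and H2-Ob form the DO heterodimer, which restrains DM. H2-Oa was the single gene among the 9 whose ICN2-positive mean was higher on its brightest probe set, at 9.79, 10.65 and 10.56 on ICN2-positive arrays, against 9.93, 10.25 and 9.81 on ICN2-negative arrays. The groups overlapped because of ICN2-positive replicate 1, and the difference was 0.34 (95% interval -0.30 to 0.98, adjusted p = 0.467), or 0.61 without that array (adjusted p = 0.113). H2-Ob lay at 7.43, 9.71 and 9.53 on ICN2-positive arrays, against 9.45, 9.73 and 9.04 on ICN2-negative arrays. Its lower mean rests on ICN2-positive replicate 1, since the difference of -0.52 (95% interval -2.07 to 1.04) was 0.21 without that array. A probe set shared with Gm20506 differed by -0.11 (adjusted p = 0.857). These intervals leave room for differences in either direction.

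Ciita, which turns on class II promoters, was dim on all 6 arrays. Its brightest probe set, 1421210_at, lay at 5.54, 5.33 and 5.46 on ICN2-positive arrays, against 5.91, 5.63 and 5.52 on ICN2-negative arrays, close to the filter limit of 5.26 to 5.30. The groups overlapped by a narrow margin, and the difference was -0.24 (95% interval -0.55 to 0.07, adjusted p = 0.3). A second probe set, 1421211_a_at, differed by 0.19 in the other direction (adjusted p = 0.684), and the third, 1447075_at, missed the filter at 4.98 to 5.41 on ICN2-positive and 4.89 to 5.30 on ICN2-negative arrays. The probe sets do not settle a direction for Ciita.

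The arrays of a group were unlike in the class II genes. Among ICN2-negative arrays, replicate 3 was the lowest in 7 of 9 genes, and H2-Aa, H2-Eb1 and Cd74 spanned 1.49, 1.14 and 1.33 log2 units there. Among ICN2-positive arrays, replicate 2 was the highest in 8 of 9 genes, and the same 3 genes spanned 1.52, 1.38 and 1.35. Ctss behaved in another way, since it spanned 2.48 log2 units among ICN2-positive arrays and 0.50 among ICN2-negative arrays. H2-Ab1 spanned 0.12 among ICN2-positive arrays.

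Markers of cell types known for class II were measured in the same samples. Of 12 tested B lineage markers none was called in limma, where 3.15% of all genes read by their brightest probe set were. An unadjusted p below 0.05 was found for 6, against 24.3% of all probe sets (a share not limited to 1 probe set per gene). Lower ICN2-positive means were found for 11, and the median difference of the list was -1.68. The summed linear intensity of all 17 measured B lineage markers was 3346, 6674 and 5166 on ICN2-positive arrays and 20116, 13840 and 8337 on ICN2-negative arrays, so ICN2-negative replicate 3 is the low array of its group here too. Cd37, which many leukocytes express, carried 52.5% to 59.7% of the sum on ICN2-positive and 17.7% to 50.6% on ICN2-negative arrays. The sum of the other markers was 1350, 3171 and 2136 on ICN2-positive and 16556, 9330 and 4115 on ICN2-negative arrays. Pax5, Ms4a1 and Cr2 lay below the 40th percentile on every array. Dntt, the terminal transferase of lymphoid progenitors, differed by -4.39 ± 0.81 (adjusted p = 0.057), and the adaptor Blnk lay at 4.37, 5.45 and 4.88 on ICN2-positive arrays, with 1 of 3 above the filter limit, against 8.59, 7.49 and 6.33 on ICN2-negative arrays (adjusted p = 0.0876). The early B cell factor Ebf1, named after its values were seen, lay at 4.34, 5.69 and 4.24 on ICN2-positive arrays, against 10.19, 7.86 and 5.55 on ICN2-negative arrays. Without ICN2-positive replicate 1 the median of the B lineage list was -1.71. In that fit 1 marker, Cd22, was called, higher at 2.20 (adjusted p = 0.0195), where 3.14% of all probe sets were called. Their part in the class II result was not tested.

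Of 14 tested monocyte and macrophage markers, 1 (Vcam1) was called in limma. The share over 12837 genes read by their brightest probe set was 3.15% (1.89% higher and 1.27% lower). An unadjusted p below 0.05 was found for 10, against 24.3% of all probe sets (a share not limited to 1 probe set per gene). Of these, Spic and Cx3cr1 were higher, by 1.17 (adjusted p = 0.114) and 0.59 (adjusted p = 0.205), and the rest were lower. In the list 11 had lower and 3 higher ICN2-positive means, with a median of -1.81. Vcam1, an adhesion molecule of marrow macrophages and stroma, fell 6.54-fold (adjusted p = 0.0447). The summed intensity of the 15 measured was 3547, 12152 and 9576 on ICN2-positive arrays and 23052, 31416 and 29221 on ICN2-negative arrays. Its low array was ICN2-positive replicate 1, the array that was also lowest in Ctss and in the median of the progenitor markers. Without that array 4 markers (Cd14, Ccr2, Ly86 and Vcam1) were lower and called, where 1.55% of all probe sets were. The median was then -1.24. Of 10 tested dendritic cell markers, 3 had an unadjusted p below 0.05 and 1 was called: Flt3, the receptor for Flt3 ligand on lymphoid-primed and dendritic precursors, lay at 5.41, 5.56 and 5.53 on ICN2-positive arrays, against 9.06, 9.85 and 8.71 on ICN2-negative arrays. It fell by 3.71 on the log2 scale (adjusted p = 0.00717), and its ICN2-positive values lay so close to the filter limit that no exact fold is given. Of the 10 tested dendritic markers, 6 had lower and 4 higher ICN2-positive means. The median of the list was -0.23 (-0.13 without ICN2-positive replicate 1). Among the 4, Itgax differed by 0.89 (adjusted p = 0.396 in limma), or by 1.45 without that array (adjusted p = 0.147). Xcr1, Ccr7 and Cd209a lay below the 40th percentile throughout. The part of these cells in the class II values was not tested, and in sorted bulk samples fewer cells of a type and less RNA per cell cannot be told apart.

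**Figure D3:**
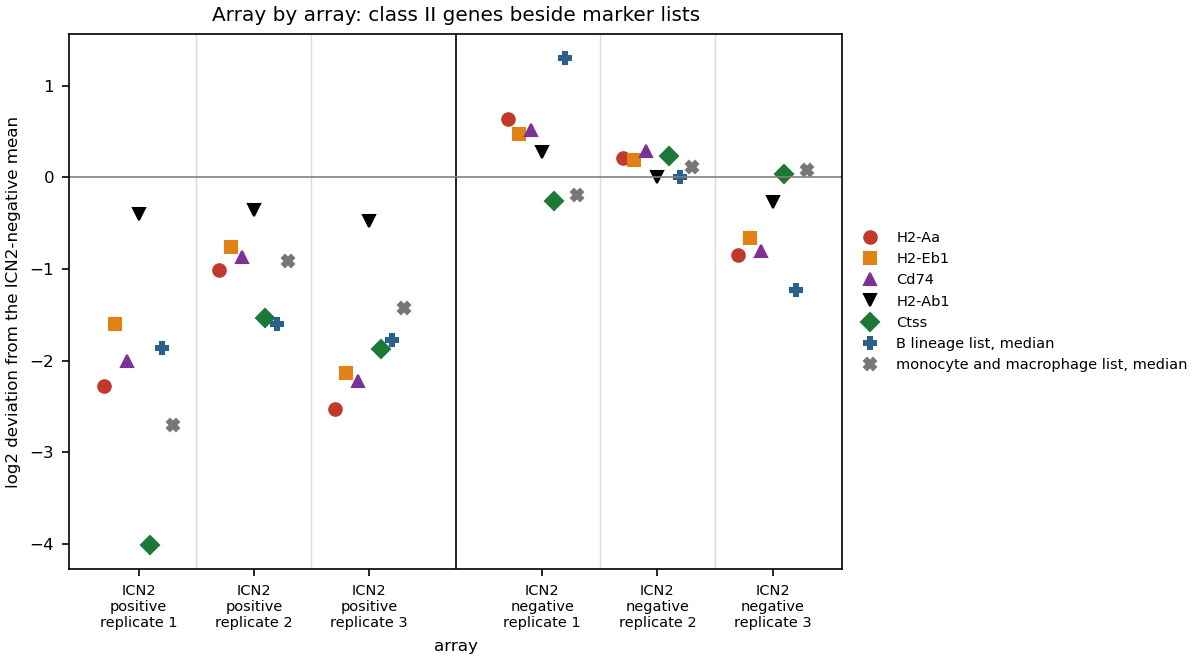
Deviation of each array from the ICN2-negative mean, in log2 units, for H2-Aa, H2-Eb1, Cd74, H2-Ab1 and Ctss and for the median of the B lineage list (12 genes) and the monocyte and macrophage list (14 genes); each column is 1 array, ICN2 positive on the left. Ctss and the monocyte list are lowest on ICN2-positive replicate 1 at -4.01 and -2.70, as is the progenitor marker list, not drawn, at -2.60. H2-Aa, H2-Eb1 and Cd74 are lowest on ICN2-positive replicate 3. Among ICN2-negative arrays these 3 genes are low on replicate 3 together with the B lineage list at -1.23. On ICN2-positive arrays the B lineage list is nearly level, at -1.86, -1.60 and -1.78.

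The other genes of the class II pathway showed no call in limma. The 23 tested accessory genes included X and Y box factors, other class II chains, endosomal proteases, ubiquitin ligases and costimulators. None passed, where 3.15% of all genes read by their brightest probe set did. An unadjusted p below 0.05 was found for 5, near the 24.3% of all probe sets. ICN2-positive means were lower for 15 and higher for 8, and the median difference was -0.065. Ctsb, the endosomal protease cathepsin B, lay at 11.63, 11.97 and 11.99 on ICN2-positive arrays, against 12.43, 12.69 and 12.61 on ICN2-negative arrays. That is a difference of -0.72 ± 0.13, and its adjusted p of 0.0584 sat just above the threshold. Rfxap, a subunit of the RFX complex on the X box, lay 0.47 ± 0.12 higher (adjusted p = 0.105), with groups that did not overlap. The remaining RFX subunits differed by -0.28 (Rfx5) and -0.065 (Rfxank), and the Y box factors Nfya, Nfyb and Nfyc by 0.020, 0.013 and 0.023, and in all 5 the groups overlapped. Irf8, a transcription factor of monocyte and dendritic precursors, lay at 6.37, 10.77 and 10.46 on ICN2-positive arrays, against 12.13, 12.51 and 12.43 on ICN2-negative arrays (adjusted p = 0.181). Without ICN2-positive replicate 1 it was the single gene of the list that passed, at -1.74 (adjusted p = 0.0177), as Ctss was among the members. Of all probe sets, 3.14% were called in that fit, 1.55% lower.

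Class I presentation, which shares neighbours and interferon control with class II, gave small differences. None of 15 tested class I genes was called in limma (1 had an unadjusted p below 0.05), with a median of -0.057, or 0.086 without ICN2-positive replicate 1. Over all probe sets 2.65% were called and 24.3% had an unadjusted p below 0.05. Psmb10, an immunoproteasome subunit, differed by 0.34 ± 0.08 (adjusted p = 0.0944) and Pdia3, a chaperone of class I loading, by -0.22 ± 0.10 (adjusted p = 0.269). None of 13 interferon response genes was called in limma either (2 had an unadjusted p below 0.05), with a median of -0.21, or 0.036 without that array. Mx1, whose promoter drives the recombinase, differed by -1.003 ± 0.26 (adjusted p = 0.102), and Ifngr1, a chain of the interferon gamma receptor, by -0.51 ± 0.16 (adjusted p = 0.14).

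The class II chains lie among other genes of the MHC. From H2-Oa to H2-Eb1 on chromosome 17 the RefSeq table lists 13 protein-coding genes, among them the class I genes Psmb9, Tap1, Psmb8 and Tap2, which lie between H2-DMb1 and H2-Ob. These 4 genes differed by -0.10, 0.087, -0.020 and 0.065, with 95% intervals that reached no further than -0.77 and 0.64. H2-Ab1, H2-Aa and H2-Eb1 follow directly after H2-Ob, and the step between the neighbours H2-Ab1 (-0.41) and H2-Aa (-1.94) is the one whose test is given above. H2-DMb2, the second DMb chain, differed by -0.91 ± 0.32 (adjusted p = 0.167). Cd74, Ciita and Ctss lie on other chromosomes.

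**Figure D4:**
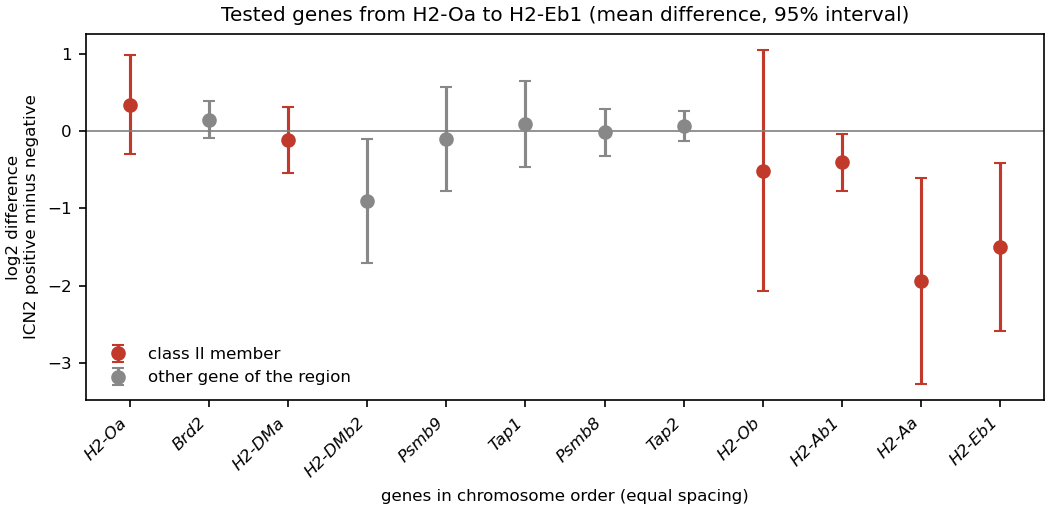
Log2 difference (ICN2 positive minus ICN2 negative, with 95% interval) of the 12 tested genes from H2-Oa to H2-Eb1 in chromosome order at equal spacing, class II members in red and other genes in grey. Psmb9, Tap1, Psmb8 and Tap2 lie between -0.10 and 0.087, and H2-Aa and H2-Eb1 at -1.94 and -1.50.

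The genes most like the class II chains were sought by the root mean square distance, over the 6 arrays, from the mean centred profile of H2-Aa, H2-Ab1, H2-Eb1 and Cd74. Among 12828 genes the closest were Kbtbd11 at 0.287 log2 units, Plbd1 at 0.291, Palld at 0.296, Camk1d at 0.313 and Gm11772 at 0.314, against a median of 0.863 over all these genes. Plbd1, a lysosomal phospholipase B-like protein, lay at 7.12, 8.02 and 7.26 on ICN2-positive arrays, against 9.88, 9.63 and 8.53 on ICN2-negative arrays. As in H2-Aa, ICN2-positive replicate 2 was the highest of its group and ICN2-negative replicate 3 the lowest. The lowest ICN2-positive array was replicate 1 rather than replicate 3. The highest ICN2-positive array of Camk1d was replicate 1, and the lowest ICN2-negative array of Palld was replicate 2. Kbtbd11 and Gm11772 had the same highest and lowest arrays as Plbd1. Closeness to the profile selected these genes, so a like order of arrays is no separate result. None of the 5 genes was called. By the same measure the genes that make up the profile stood at 0.109 (H2-Eb1), 0.201 (Cd74), 0.331 (H2-Aa) and 0.602 (H2-Ab1), and the other members at 0.730 (Ciita) to 0.986 (Ctss).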

How the data were processed

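The authors deposited linear intensity values for each probe set on every array, and the submitters' processing notes name RMA, without a version in what was used here. Values ran from 5.13 to 24679 on a linear scale, and log2 was taken here. Amplification started from 5 ng of RNA, per the labels' protocols. RMA forces like distributions on all arrays, so a change in total RNA per cell would not be seen, and no detection call was at hand. The number of arrays limits the precision.

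Of 45101 rows, 34958 named 1 gene, 932 several and 9211 none, and 64 were array controls. A probe set was tested if it exceeded the 40th percentile of an array on 3 or more of the 6 (27424 did). limma 3.58.1 in R 4.3.3 (lmFit, eBayes, no covariate) compared the genotypes, with Benjamini-Hochberg adjustment over all of them. The fit was run on simulated data with independent noise of equal spread on every array. That check does not cover a deviant array such as ICN2-positive replicate 1. List genes were read by their probe set of highest mean.

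Named genes were all members and, of each list, the called genes or the 2 of smallest p. Kit, Gata1, Mpo, Cebpa, Ctsg, Prtn3, Elane, Cd37, Ebf1, Irf8, Ifi30 and Lgmn were named after their values were seen. So were Spic, Cx3cr1, Itgax, the RFX and NFY genes and the chromosome neighbours. The members and lists were chosen with earlier results of these data known.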

Additional observations from a re-analysis of the deposited data

How the results depend on the processing

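Alternatives covered the filter, 1 probe set per gene, median centring, the variance model, array weights, an added 32 on the linear scale, the replicate number as a block and each array left out. Members called numbered 0 in each of these but the array weights and the arrays left out. With 1 array left out they numbered 0 to 1 (Ctss without ICN2-positive replicate 1, where 3.14% of all probe sets were called). With array weights 5 were called (2 H2-Aa probe sets, H2-Eb1, Cd74 and Ctss, all lower). In the weighted fit 3970 of all 27424 probe sets were called, 1685 of them lower. The weights ran from 0.294 on ICN2-positive replicate 1 to 4.03 on ICN2-positive replicate 3, so that fit rests largely on replicate 3. Signs turned for H2-DMa 1422527_at (0.0020 with array weights, -0.23 to 0.051 with 1 array left out, highest without ICN2-positive replicate 1), H2-Ob (0.085 and, left out likewise, -0.93 to 0.21) and Ciita 1421211_a_at (-0.080 to 0.38, lowest without ICN2-negative replicate 3). The cause was not tested. Over all alternatives and tested member probe sets, 191 values kept their sign and side of the threshold, 6 became calls and 5 turned sign.

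Over all probe sets, 728 calls became 1252 with trend and robust eBayes, 3970 with array weights, 268 with the replicate block and 95 to 860 with 1 array left out. The lowest count, 95, came without ICN2-negative replicate 3. The accessory list had 1 call with no filter (Lgmn), and 1 with the stricter filter, with 1 probe set per gene, with trend and robust eBayes and with the added 32 (Ctsb each time). It had 3 with array weights (Ctsb lower, Ifi30 and Rfxap higher) and 0 to 1 with 1 array left out. Class I had 1 call with trend and robust eBayes (Psmb10). The interferon list had 1 with array weights (Mx1) and 0 to 1 with 1 array left out (Mx1 without ICN2-positive replicate 2). Arrays of the same replicate number correlated in their deviations at 0.183, 0.101 and 0.0945, and arrays of unlike number at -0.205 to 0.128. Not every array correlated best with its own number. With 3 arrays per group these values cannot settle whether the numbers pair the arrays, and the main fit used no pairing. The replicate block left the members at 0 calls.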
